A study of Secale cereale x Triticum turgidum subsp. durum with 39 samples.

Results

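GAPN and gapdh encode enzymes that oxidise glyceraldehyde-3-phosphate along different routes. The array measured GAPN with 1 probe set (Ta.511.1.S1_at), found by its symbol in the platform annotation, and gapdh with 5 maintenance control probe sets, found by the name gapdh in their identifiers. Those 6 rows, of 61290 in all, stand for 2 of the 21 genes that the annotation and the control names allowed to be named. Both genes were chosen from the deposited signals, with their levels in these organs already known, so levels and differences are given as a description, with no p-value.

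RNA came from triticale, the cereal made by crossing wheat and rye, cultivar Alta, and was measured with the Affymetrix Wheat Genome Array. Anthers (the pollen-bearing organs), stigmas (where the pistil receives pollen) and ovaries were each taken at 4 stages, abbreviated after the state of the male cells in the anther: TET for the tetrads that meiosis leaves, UNM for microspores with a single nucleus, BCP for pollen of 2 cells and TCP for pollen of 3 cells. With shed pollen, labelled MPG for mature pollen grains, there were 13 groups of 3 arrays, which the labels call biological replicates. All plants were of 1 cultivar, with no treatment and no altered gene in any group, and whole organs were extracted, so each value is an average over the cell types of that organ.

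The phosphorylating enzyme, GAPDH, is the classical enzyme of glycolysis: it adds inorganic phosphate to glyceraldehyde-3-phosphate and makes NADH, and the phosphate is passed on to ATP in the next reaction. GAPN is the plant enzyme that skips that reaction: it oxidises the same substrate directly to phosphoglycerate with NADP, so that NADPH is made and the ATP is forgone. In anthers, the microspores and the nutritive tapetum around them import sugar and use both energy and reducing power as the pollen wall and the pollen reserves are built. The label gapdh does not say whether the control transcript is of the cytosolic or the plastid enzyme.

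Values are log2 signals, so a difference of 1 is a 2-fold difference, and levels are compared between groups only within a probe set. A mean under 6 is called dim here, since the medians of the arrays lay between 4.79 and 5.10, so folds that involve such a mean compare signals, which include background, and not transcripts. Replicate arrays correlated with r of 0.978 to 0.996 over all rows, and no 2 arrays were identical. Per the labels' protocols, extraction and labelling methods went with the stage in all organs: one set was used at TET (labelling with a repeated amplification cycle), one at UNM and BCP, and one at TCP and for MPG (labelling with a single cycle). Differences between organs of a stage, between BCP and UNM, and between MPG and TCP organs were thus free of a change of labelling kit. At UNM and BCP the extraction kits were RNeasy and InviTrap, and which organ or stage had which is not given here. The differences of UNM from TET and of TCP from BCP cannot be told apart from the change of kits.

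GAPN signal was highest in anthers at the microspore and early pollen stages. In anthers its signal was 5.48, 5.14 and 5.57 at TET, 9.72, 9.80 and 9.64 at UNM, 9.92, 9.03 and 8.41 at BCP, and 6.59, 5.998 and 5.88 at TCP, and it was 5.96, 6.27 and 5.81 in MPG. The 6 UNM and BCP arrays all stood above the other 33 arrays of the study. As a mean, that was 9.72 ± 0.08 at UNM and 9.12 ± 0.76 at BCP, against 6.01 ± 0.24 in MPG (SD, n = 3 each). In whole organs, fewer cells of a type and less RNA per cell cannot be told apart. Of 6 markers listed for chloroplast-bearing cells 1 was named on the array, petC, and its mean in anthers was 9.98 at TET, 12.7 at UNM, 11.2 at BCP and 7.69 at TCP, with 6.18 in MPG. Its part in the GAPN signal was not tested, and none of 3 tapetum markers was named.

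In stigmas GAPN was dim throughout, at 5.49, 5.37 and 5.41 at TET, 4.63, 4.52 and 4.62 at UNM, 4.99, 4.38 and 5.27 at BCP, and 4.73, 5.13 and 5.10 at TCP. In ovaries it was dim as well, at 5.27, 5.23 and 5.65 at TET, 5.68, 5.50 and 4.91 at UNM, 5.62, 5.37 and 5.28 at BCP, and 5.65, 5.84 and 5.56 at TCP. Ordered by mean, the 13 groups ran from anthers at UNM through anthers at BCP, anthers at TCP (6.16), MPG (6.01), ovaries at TCP (5.68), ovaries at BCP (5.43), stigmas at TET (5.42), anthers at TET (5.40), ovaries at TET (5.38), ovaries at UNM (5.36), stigmas at TCP (4.98) and stigmas at BCP (4.88) to stigmas at UNM (4.59). Between neighbours in that order, the arrays overlapped everywhere except between anthers at BCP and anthers at TCP, whose means lay 2.96 apart. Under a scaling to the hybridisation controls, 9 of the 13 places changed, but anthers at UNM and at BCP kept the highest 2.

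**Figure D1:**
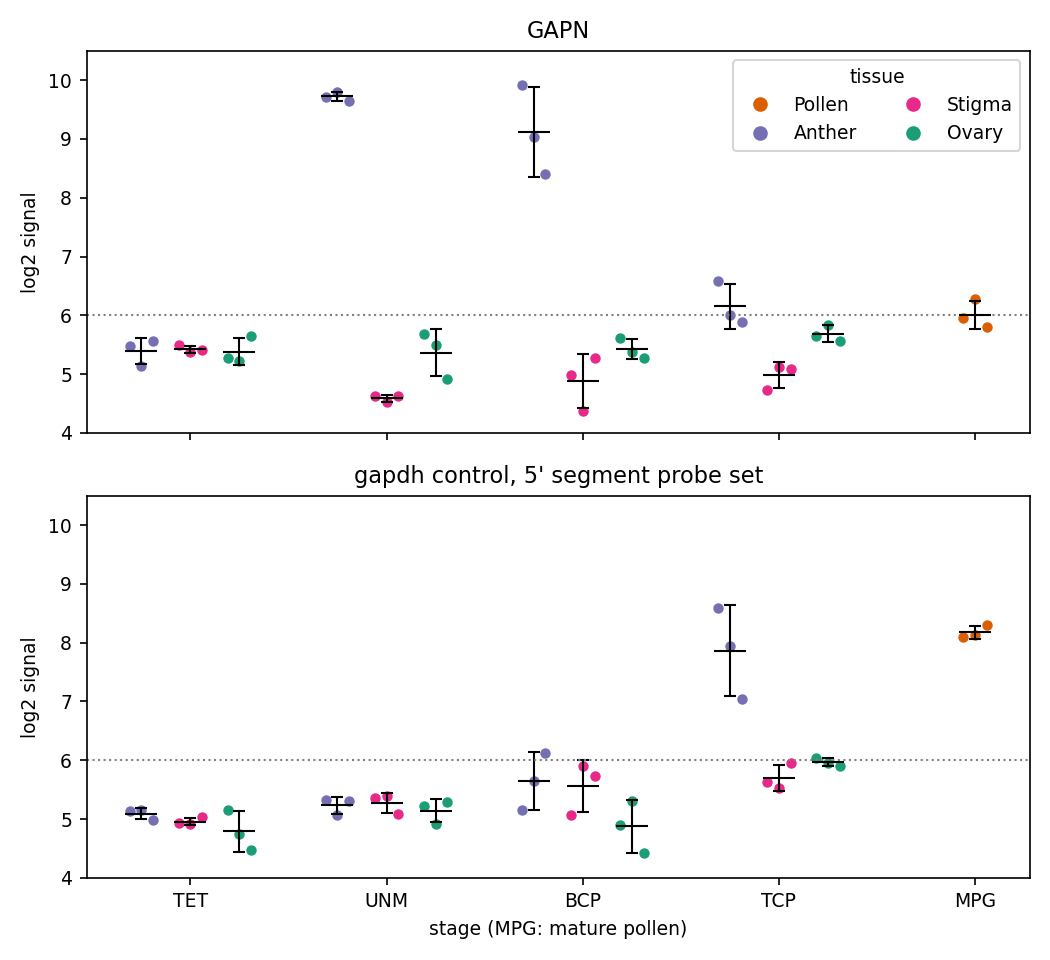
Log2 signal of GAPN (upper panel) and of the gapdh 5' segment probe set (lower panel) on each of the 39 arrays, by stage and tissue. Points are arrays, bars are the mean and SD of 3 arrays, and the dotted line marks the signal of 6 below which a mean is called dim. GAPN stands between 8.41 and 9.92 in anthers at UNM and BCP, and gapdh between 7.05 and 8.59 in anthers at TCP and in mature pollen.

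At the tetrad stage GAPN differed little between the organs: anthers differed from ovaries by 0.02 and from stigmas by -0.03 on the log2 scale (SE 0.24), and the arrays overlapped. At UNM the anther mean was 4.36 above that of ovaries, 20.5-fold, and 5.13 above that of stigmas, 35.1-fold (SE 0.24 each), with no overlap of arrays. Of the 61204 probe sets tested, 348 had a larger anther excess over ovaries, or 0.569%, and 267 over stigmas, or 0.436%. Nothing is read from these ranks, since the gene was chosen with its levels known. For TCP anthers over stigmas the share was 6.47%, and for MPG over TCP stigmas 17.1%. At BCP the anther excess was 3.69 over ovaries, 12.9-fold, and 4.24 over stigmas, 18.9-fold, again with no overlap.

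At TCP little of the anther excess was left. Anthers stood 1.17 above stigmas, 2.25-fold, and 0.47 above ovaries, in each case with no overlap of arrays. Under the scaling to hybridisation controls the excess over stigmas was 0.64, and the difference from ovaries turned to -0.18. Without replicate 1 of the TCP anthers, the brightest of the 3, the excess over stigmas was 0.96. The 3 MPG arrays overlapped those of TCP anthers (-0.15), and MPG stood 0.33 above TCP ovaries, a difference that turned to -0.60 under the hybridisation control scaling. MPG stood 1.03 above TCP stigmas, 2.04-fold, but only 0.22 above them under the hybridisation control scaling, and 0.90 without replicate 2 of the pollen or without replicate 1 of the stigmas.

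Between the pistil organs, GAPN was lower in stigmas than in ovaries from UNM on, with differences of -0.77 at UNM, -0.55 at BCP and -0.70 at TCP (SE 0.24). The arrays of the organs did not overlap at any of these 3 stages, and at TET, where the difference was 0.04, they did. All of these means were dim. None of the 3 differences reached 2-fold, but without replicate 3 of the UNM ovaries, the lowest of its group at 4.91, the UNM difference was -1.

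Along anther development, GAPN was 4.33 higher at UNM than at TET, 20.1-fold, with the change of kits between them, and 3.54 higher under the hybridisation control scaling. In the same step ovaries differed by -0.02, and stigmas by -0.83, with no overlap of arrays, or by -1.64 on that scaling. From UNM to BCP, with the labelling kit unchanged, the anther mean was 0.60 lower at BCP and the arrays overlapped. Replicate 1 of BCP (9.92) lay above all UNM arrays and replicates 2 and 3 (9.03 and 8.41) below them. Without that replicate the BCP mean was 1.01 lower than the UNM mean, and under the hybridisation control scaling, with all 3 replicates, the difference was -0.06. From BCP to TCP, where the kits changed again, GAPN was 2.96 lower at TCP in anthers, 7.79-fold, while in the same step it was 0.26 higher in ovaries and 0.10 higher in stigmas.

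**Figure D2:**
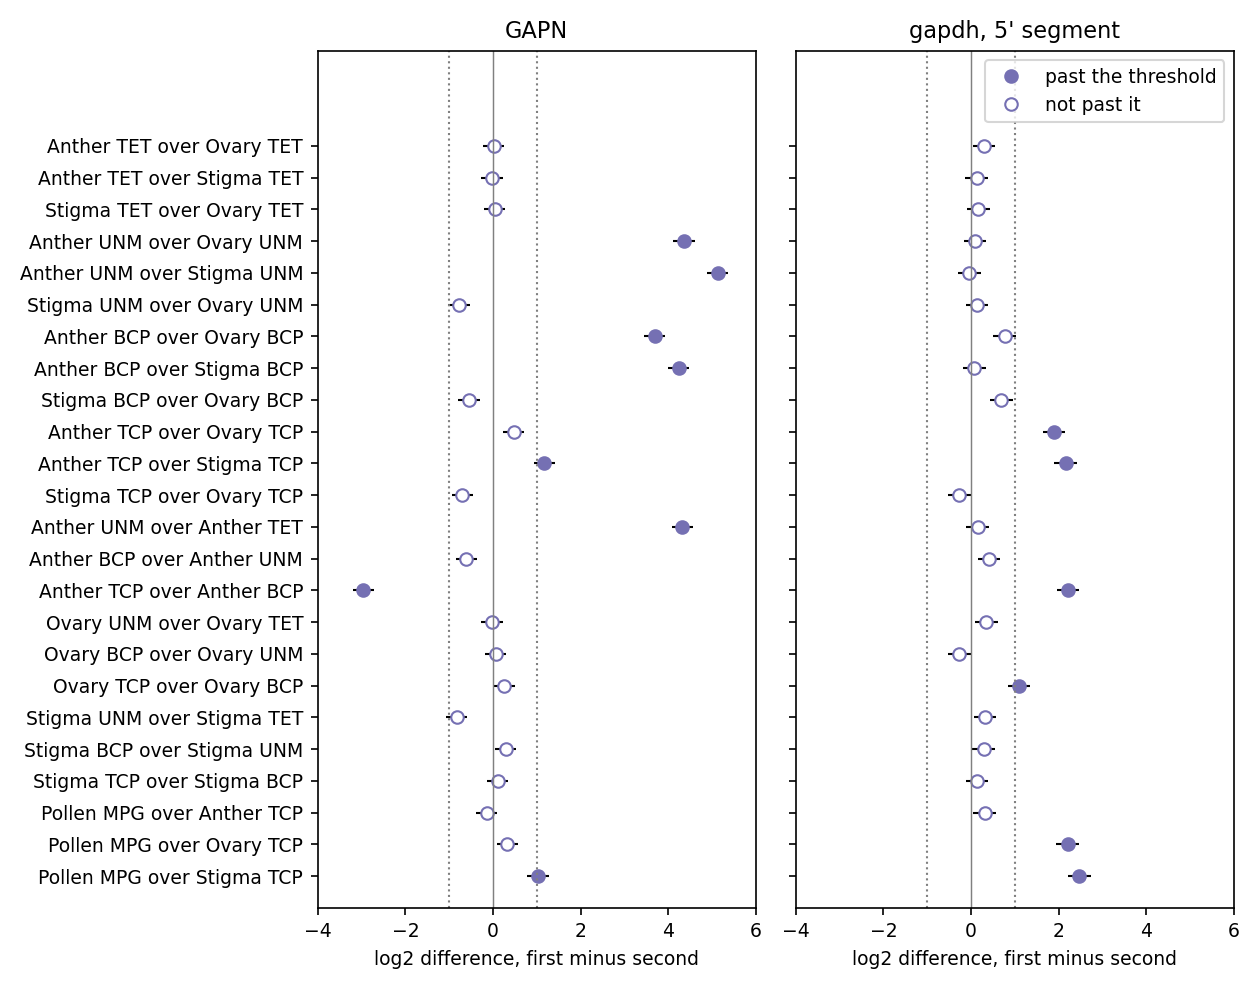
Log2 differences, first group minus second, of GAPN (left) and of the gapdh 5' segment probe set (right) in the 24 comparisons, with bars for the SE of the fit. Filled points passed the threshold of an adjusted p under 0.05 and at least 2-fold (dotted lines), and open points did not; GAPN passed it in 8 comparisons and gapdh in 6.

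A probe set was called where limma's adjusted p over all 61204 tested was under 0.05 and the difference at least 2-fold. Since the members were taken from these contrasts, nothing is read from their calls, which are set beside the share of all probe sets called. In anthers over ovaries, 1 of the 6 member probe sets (GAPN) was called higher at UNM, where 6.06% of all were called higher and 6.48% lower, and the same 1 at BCP, with 6.38% higher and 7.29% lower. In anthers over stigmas GAPN was again the only member called at UNM, where 6.74% were higher and 5.98% lower, and at BCP, where 7.40% were higher and 7.30% lower. At TCP, 2 members (both gapdh 5' probe sets) were called higher in anthers over ovaries, with 10.0% of all higher and 16.5% lower, and 3 (with GAPN) over stigmas, with 7.96% higher and 15.3% lower.

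For the steps in anthers, GAPN alone was called higher at UNM over TET (8.78% of all higher, 6.58% lower), and no member was called at BCP over UNM (4.02% higher, 4.27% lower). At TCP over BCP both gapdh 5' probe sets were called higher and GAPN lower (10.3% higher, 15.6% lower). In ovaries at TCP over BCP 1 gapdh probe set was called higher (4.56% higher, 3.19% lower). In MPG, 2 members were called higher over TCP ovaries (20.1% higher, 21.9% lower) and 4 over TCP stigmas (17.9% higher, 20.7% lower). In MPG over TCP anthers no member was called (15.7% of all in either direction).

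No member was called at TET in anthers over ovaries (8.31% of all in either direction) or over stigmas (8.75%). The same held for stigmas over ovaries at TET (1.82%), UNM (3.09%), BCP (6.89%) and TCP (12.7%). In ovaries none was called at UNM over TET (11%) or at BCP over UNM (1.4%), and in stigmas none at UNM over TET (11%), at BCP over UNM (3.61%) or at TCP over BCP (11.2%).

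The gapdh 5' probe sets gave their highest signal in TCP anthers and MPG. GAPN averaged 6.16 and 6.01 there, below its means in UNM and BCP anthers. The gapdh probe sets for the middle and the 3' end without an x were dim on every array. The gapdh probe sets are named for the 5' end, the middle (M) and the 3' end of the transcript, and those with an x in the identifier hold probes that can match other transcripts as well. It was not tested whether the 5' probes match another transcript or whether the segment names follow the strand, since no probe sequence was used here. The 5' probe set was taken to stand for gapdh by a rule, the highest mean over all arrays, and its signals in MPG and TCP anthers carry that mean. It had signals of 8.10, 8.13 and 8.30 in MPG and of 8.59, 7.95 and 7.05 in anthers at TCP. No array of another group exceeded 6.13, and the other 11 group means, 4.79 to 5.97, were all dim. MPG (8.17 ± 0.11) and TCP anthers (7.86 ± 0.77; SD, n = 3 each) overlapped, and a gap of 1.896 separated them from the next group, TCP ovaries. Of 4 pollen markers listed, the 1 named on the array, actin, was also highest in MPG and TCP anthers. Its M probe set averaged 13.61 in MPG and 13.98 in TCP anthers, against 7.15 in TCP stigmas and 6.65 in TCP ovaries. Actin parted from gapdh 5' at BCP. In BCP anthers actin M already averaged 9.56, against 5.95 in UNM anthers, while gapdh 5' was dim in both (5.64 and 5.24). The part of pollen content in the gapdh signal of anthers was not tested. XTH, the 1 named of 4 pistil markers, averaged 6.34 in MPG and 5.36 in TCP anthers, against 9.82 in TCP ovaries.

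Below that gap the order of the 5' probe set was TCP ovaries (5.97), TCP stigmas (5.70), BCP anthers (5.64), BCP stigmas (5.57), UNM stigmas (5.28), UNM anthers (5.24), UNM ovaries (5.14), TET anthers (5.09), TET stigmas (4.96), BCP ovaries (4.87) and TET ovaries (4.79). Neighbours in it overlapped at every place. Under the hybridisation control scaling 9 places differed, and MPG and the 3 TCP organs kept the highest 4.

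At TCP, gapdh 5' signal in anthers stood 1.896 above ovaries, 3.72-fold, and 2.16 above stigmas, 4.47-fold (SE 0.26 each). MPG stood 2.21 above TCP ovaries, 4.62-fold, and 2.47 above TCP stigmas, 5.55-fold. None of these arrays overlapped, and the kits were the same in all 4 groups. On the hybridisation control scaling the same 4 differences were smaller, at 1.24, 1.63, 1.28 and 1.66. At the earlier stages the anther differences from ovaries and stigmas were between -0.04 and 0.77, and the arrays overlapped at each of those stages.

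In anthers the 5' signal was 5.14, 5.15 and 4.98 at TET, 5.33, 5.07 and 5.31 at UNM and 5.15, 5.65 and 6.13 at BCP. It was 2.22 higher at TCP than at BCP, 4.65-fold, across a kit change. Ovaries had 6.05, 5.95 and 5.90 at TCP, against 4.90, 5.31 and 4.41 at BCP, which made 1.09 or 2.13-fold, and 0.86 without replicate 3 of the BCP ovaries. Stigmas had 5.63, 5.52 and 5.95 at TCP, against 5.07, 5.90 and 5.73 at BCP, with overlap.

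The 5' x probe set ran nearly in parallel with the 5' probe set (r = 0.988 over the 13 group means, which share kits and normalisation, as do all correlations over groups given here). It averaged 7.06 ± 0.26 in MPG and 6.62 ± 0.35 in TCP anthers, against 5.34 ± 0.12 in TCP stigmas and 5.33 ± 0.22 in TCP ovaries (SD, n = 3 each), with no overlap between the pollen-bearing and the pistil groups. TCP anthers stood 1.28 above ovaries and 1.27 above stigmas (SE 0.19), and those differences were 0.63 and 0.74 on the hybridisation control scaling.

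The M x probe set was also highest in MPG (6.36 ± 0.34) and TCP anthers (6.01 ± 0.22), against 5.48 ± 0.14 in TCP ovaries and 5.22 ± 0.03 in TCP stigmas (SD, n = 3 each). MPG stood 1.13 above TCP stigmas, and 0.32 above them on the hybridisation control scaling. The excess of TCP anthers over ovaries, 0.53, turned to -0.12 under that scaling.

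The remaining gapdh probe sets, M and 3', were dim on all 39 arrays, between 2.78 and 3.71 for M and between 3.76 and 5.04 for 3'. Their group means spanned 0.71 each, neither was called in any of the 24 comparisons, and TCP anthers stood above TCP ovaries by 0.43 in M and 0.46 in 3', differences that turned to -0.23 and -0.19 under the hybridisation control scaling. Over the 13 group means the 5' probe set correlated with M x at r = 0.897, with M at 0.873 and with 3' at 0.506.

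**Figure D3:**
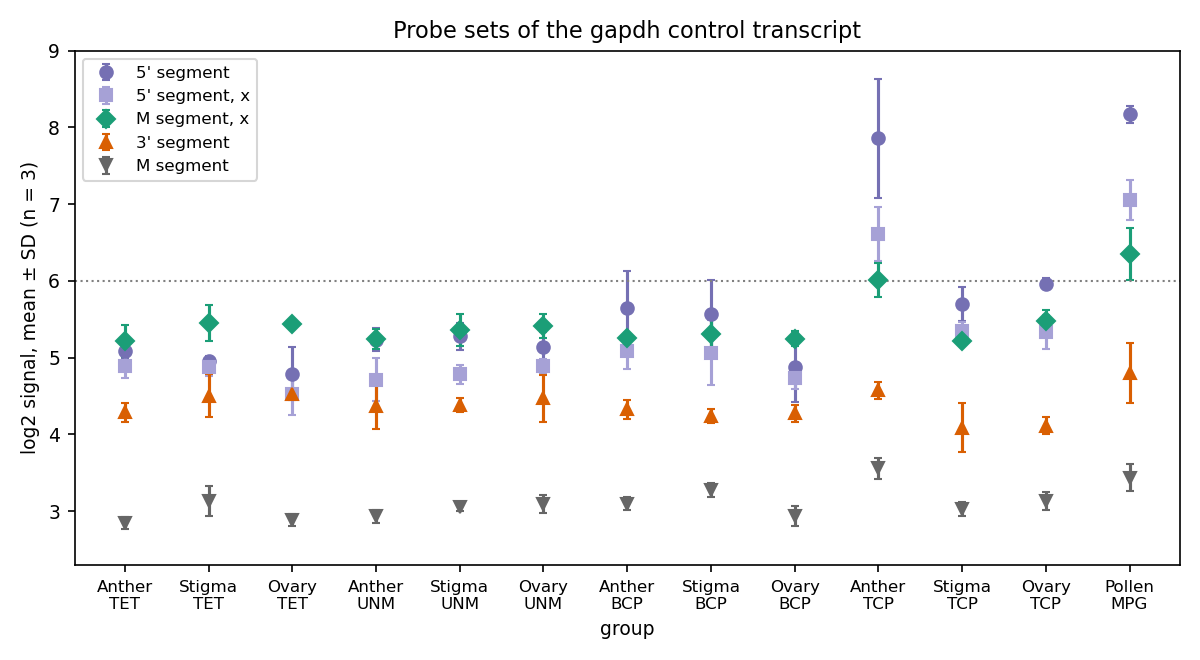
Mean log2 signal with SD (n = 3 arrays) of the 5 gapdh control probe sets in the 13 groups, and the signal of 6 below which a mean is called dim (dotted line). The 5', 5' x and M x probe sets pass 6 in anthers at TCP and in mature pollen alone, and the 3' and M probe sets stay under it in all groups; heights are to be compared within a probe set.

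The difference between the 3' and 5' probe sets of gapdh mostly restates the 5' signal, since the 3' probe set was dim on all 39 arrays and its group means spanned 0.71. The 3' minus 5' difference averaged -3.38 in MPG and, at TCP, -3.29 in anthers, -1.61 in stigmas and -1.85 in ovaries, against -1.33 to -0.26 in the 9 groups of earlier stages.

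Poly-A spikes are bacterial transcripts added to each RNA before labelling, so they do not come from the plant. Their 3' minus 5' difference, as a mean of 4 spikes, was 0.61 in MPG and, at TCP, 1.23 in anthers, 1.28 in stigmas and 0.90 in ovaries, against 1.96 to 3.35 in the 9 groups labelled with the other kits. The UNM and BCP groups, which shared a labelling kit, spanned that whole range, and what set the spike difference was not tested. Taken singly, the group means of dap and thr were parted in the same way, but those of lys and phe overlapped between the kits. For lys the difference was 1.25 in BCP ovaries and 1.67 in TCP stigmas. For phe it was 0.55 in BCP stigmas and 0.74 in TCP stigmas. The BCP stigma arrays also differed among themselves, from 2.15 to 4.96 for dap. The spike values are not set against those of gapdh, whose 3' probe set gave no signal above the dim level. The part of the kits in the gapdh step from BCP to TCP cannot be told apart from stage.

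Some other control transcripts had brighter 5' probe sets at TCP than at BCP in the pistil, and others did not. In ovaries, the 5' probe set of Sucsyn (sucrose synthase, which splits imported sucrose) averaged 8.03 at TCP, against 3.98 at BCP, and that of G-6-PDH (glucose-6-phosphate dehydrogenase, the entry enzyme of the oxidative pentose phosphate pathway) averaged 7.94, against 4.17. Their 3' probe sets changed less in ovaries, from 12.48 to 12.62 for Sucsyn and from 8.66 to 9.45 for G-6-PDH. On the hybridisation control scaling that G-6-PDH step was 1.05. In ovaries the M probe set of Sucsyn stood 3.94 above its 5' probe set at BCP and 2.89 above it at TCP. For G-6-PDH these values were 2.29 and 0.76, so both M probe sets were brighter at TCP as well. In stigmas the 5' probe set of Sucsyn was 3.42 higher at TCP, that of G-6-PDH 2.62 higher and that of gapdh 0.14 higher. The 3' probe sets of Sucsyn and G-6-PDH were 0.39 and 0.245 higher there. The causes of these 5' steps were not tested, and nothing is read from them about transcript levels. The part of the kits cannot be told apart from stage. The 5' step was smaller for Ubiquitin (0.98 in ovaries and 0.70 in stigmas) and CYP86-TA (0.81 and 0.52). It was near 0 for actin (0.27 and 0.08) and ef1a (0.09 and -0.12). In anthers the 5' probe set was 6.39 higher at TCP for actin, 2.22 for gapdh, 0.88 for CYP86-TA and 0.84 for Sucsyn. The anther step was 0.31 for Ubiquitin, 0.19 for G-6-PDH and -0.04 for ef1a. The 3' probe set of actin changed less than its 5' probe set, from 12.52 in BCP anthers to 13.96 in TCP anthers.

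**Figure D4:**
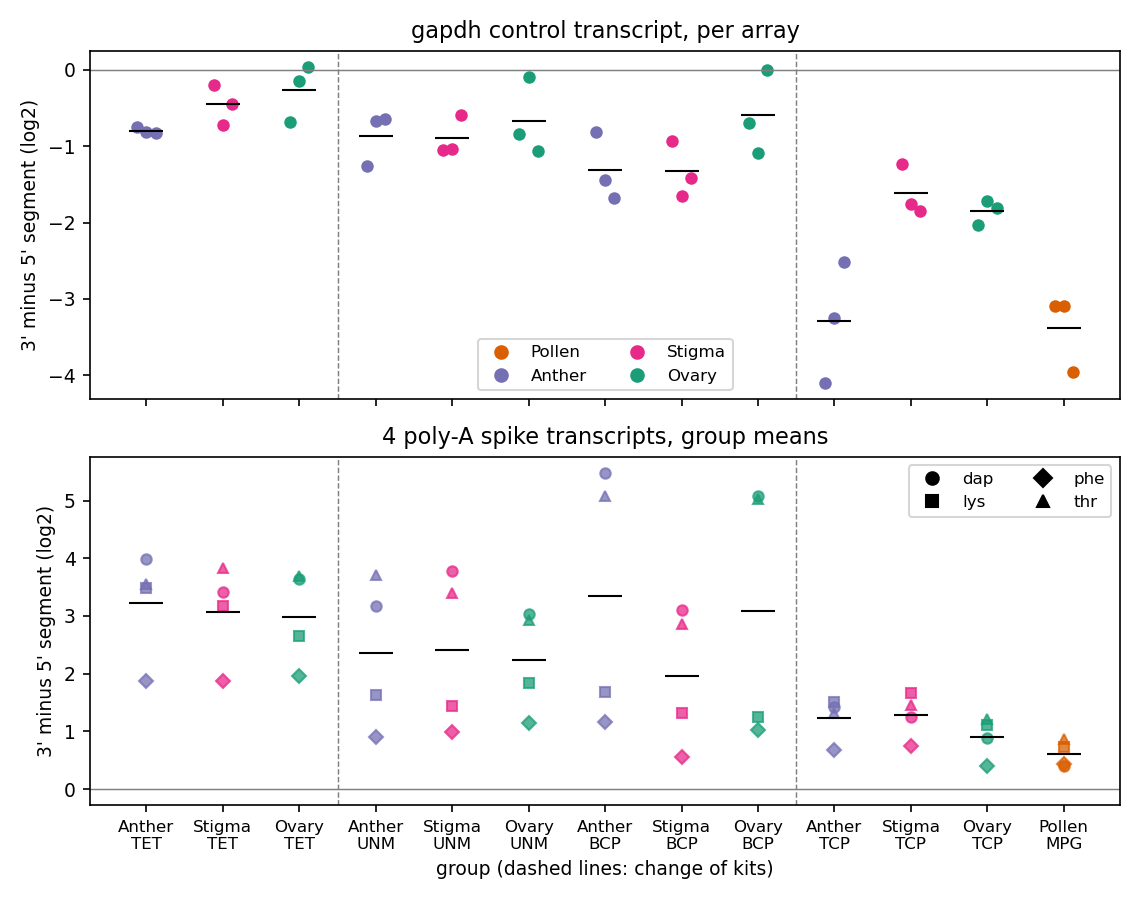
Difference between the 3' and the 5' segment probe sets (log2) of the gapdh control on each array (upper panel, bars at the means of 3 arrays) and of 4 poly-A spikes as group means (lower panel, bars at the means of the spikes). The dashed lines mark where the extraction and labelling kits changed. The gapdh panel mostly restates the 5' signal, because the 3' probe set was dim on all arrays, and the panels are not to be set against each other. The gapdh means are -3.29 in TCP anthers and -3.38 in mature pollen, against -1.33 to -0.26 before TCP, and the spike means are 0.61 to 1.28 to the right of the last dashed line, against 1.96 to 3.35 to its left.

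The 3 anther arrays of BCP differed among themselves, and GAPN and gapdh ran in opposite order in them. Replicates 1, 2 and 3 had GAPN signals of 9.92, 9.03 and 8.41 and gapdh 5' signals of 5.15, 5.65 and 6.13. The gapdh 5' signals of replicates 1 and 2 were under 6, and the order of 3 arrays was not tested. The brightest actin M signal, 10.37, was also in replicate 3, against 9.45 and 8.86 in replicates 1 and 2. That replicate had the lowest signals of FBP (8.18, against 8.99 and 9.10) and of petC (10.73, against 11.57 and 11.20). At TCP the order of the anther replicates was the same for both genes: 6.59, 5.998 and 5.88 for GAPN and 8.59, 7.95 and 7.05 for gapdh 5'. Over all 13 group means GAPN and gapdh 5' were nearly unrelated (r = 0.064).

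A list of genes of sugar and carbon metabolism was used as the wider setting, and 4 of its genes had a named probe set: FBP (fructose bisphosphatase, which works in sucrose synthesis and in the Calvin cycle), G-6-PDH, Sucsyn and PFK (phosphofructokinase of glycolysis). Each gene was represented by its probe set of highest mean, which for Sucsyn and G-6-PDH was the 3' probe set. The list was drawn up by pathway with earlier results of these data known, so its p-values, adjusted over all probe sets, are not independent evidence. In anthers at UNM over TET, across a change of kits, 2 of the 4 rose. By the same threshold 8.78% of the 61204 tested rows rose in that step and 6.58% fell. The list median was 1.39, against -0.07 for all probe sets. FBP was 9.94 at UNM, against 6.77 at TET, which was 8.97-fold higher (limma adjusted p = 7.4e-15). Sucsyn was 12.4 at UNM, against 9.05 at TET, 9.90-fold higher (limma adjusted p = 2.1e-14). G-6-PDH, which makes NADPH as GAPN does, was 9.80 at UNM and 10.4 at TET. That was a difference of -0.61 on the log2 scale (limma adjusted p = 0.021) and under 2-fold. Under the hybridisation control scaling, where the median of all probe sets was -0.86, FBP was 5.19-fold and Sucsyn 5.73-fold higher, while G-6-PDH fell by 1.40 and PFK by 1.17. On that scaling 39.4% of all probe sets were called in either direction.

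From UNM to BCP in anthers 3 of the 4 were called lower and 0 higher, where 4.27% of all probe sets were called lower and 4.02% higher. The list median was -1.55, against -0.02 for all probe sets. Sucsyn was 5.43-fold lower at BCP, G-6-PDH 3.75-fold and FBP 2.27-fold (limma adjusted p = 8.3e-11, 7.3e-09 and 2.5e-05). Under the hybridisation control scaling, where the median of all probe sets was 0.53, FBP was no longer called (-0.64), and Sucsyn (-1.89) and G-6-PDH (-1.36) still were. On that scaling 13% of all probe sets were called in either direction. From BCP to TCP, where the kits changed again, the same 3 were called lower and 0 higher. Of all probe sets, 15.6% were called lower and 10.3% higher. The list median was -1.97, against 0.17 for all probe sets. Sucsyn was 5.79-fold lower at TCP, G-6-PDH 6.51-fold and FBP 2.64-fold (limma adjusted p = 5.3e-12, 3.1e-13 and 3.7e-07). For Sucsyn and G-6-PDH these falls are those of the 3' probe sets. In the same step the 5' probe set of Sucsyn was 0.84 higher and that of G-6-PDH 0.19 higher, with dim means. The M probe set of Sucsyn stood 2.15 above its 5' probe set at BCP and 1.89 above it at TCP. PFK was dim in all groups and not called in any comparison on the deposited scale, with means between 2.93 and 3.67 in anthers.

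Against the pistil the list was split. In anthers at UNM, FBP was 17.1-fold higher than in ovaries (limma adjusted p = 6.0e-18), as GAPN was, while Sucsyn (12.4 in anthers, 12.5 in ovaries) and G-6-PDH (9.80 in anthers, 8.90 in ovaries) differed by less than 2-fold. G-6-PDH just passed 2-fold (1.00) under the scaling to the brighter probe sets, and PFK was called lower (-1.21) under that to hybridisation controls. In anthers at TCP over stigmas, 0 of the 4 rose and 3 fell. By the same threshold 15.3% of the 61204 tested rows fell there and 7.96% rose. The list median was -3.02, against 0.13 for all probe sets. Sucsyn was 32.2-fold lower, G-6-PDH 23.0-fold lower and FBP 2.86-fold lower (limma adjusted p = 5.0e-20, 2.5e-19 and 8.5e-08). In MPG over TCP ovaries Sucsyn was 73.0-fold lower and G-6-PDH 20.1-fold lower (limma adjusted p = 4.2e-23 and 3.0e-19), and 139-fold and 38.4-fold lower under the hybridisation control scaling.

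The named genes whose profile over the 13 group means was most like that of GAPN were CAT1 (catalase, which removes hydrogen peroxide; r = 0.874), FBP (r = 0.678) and petC (the Rieske protein of the chloroplast electron transport chain; r = 0.602), followed by Ubiquitin (0.231) and actin (0.155). Those 3 also had their highest group mean in anthers at UNM: 8.14 ± 0.80 for CAT1, 9.94 ± 0.12 for FBP and 12.7 ± 0.12 for petC (SD, n = 3 each). They parted from GAPN elsewhere. FBP averaged 8.87 in stigmas at TCP, against 7.06 in TCP ovaries, and petC averaged 10.8 in ovaries at TCP, while GAPN was dim in these groups. The other probe sets of these genes did not share the anther profile: in anthers at UNM they had means of 4.65 for FBP, 4.15 for CAT1 and 3.31 for petC, and their r with GAPN was -0.259, -0.301 and -0.348. The lowest correlations with GAPN were those of XTH (a cell wall enzyme gene, -0.515), TUBA (alpha-tubulin, -0.453) and ef1a (a translation factor, -0.384).

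Among unnamed probe sets that reached 8 in a group and spanned at least 2, the closest to GAPN were Ta.137.1.S1_at (r = 0.982) and Ta.8373.1.S1_at (r = 0.980). Of the 15557 such probe sets, 134 or 0.861% had an r of at least 0.9 with GAPN.

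For gapdh 5' the closest named gene was actin (r = 0.946, and a rank correlation of 0.802), whose M probe set averaged 13.98 in TCP anthers. THI1.1 (0.7996), THI1.2 (0.758), ef1a (0.723) and TTHV (0.352) came next, but all 4 were dim in every group and spanned less than 2. The most opposed were Sucsyn (-0.814), G-6-PDH (-0.758) and SAHH (an enzyme of the methylation cycle, -0.747). TaAffx.23939.1.S1_x_at (r = 0.990) and Ta.5667.3.S1_x_at (r = 0.989) were the closest unnamed probe sets, and 848 of the 15557, or 5.45%, had an r of at least 0.9, against 0.861% for GAPN.

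**Figure D5:**
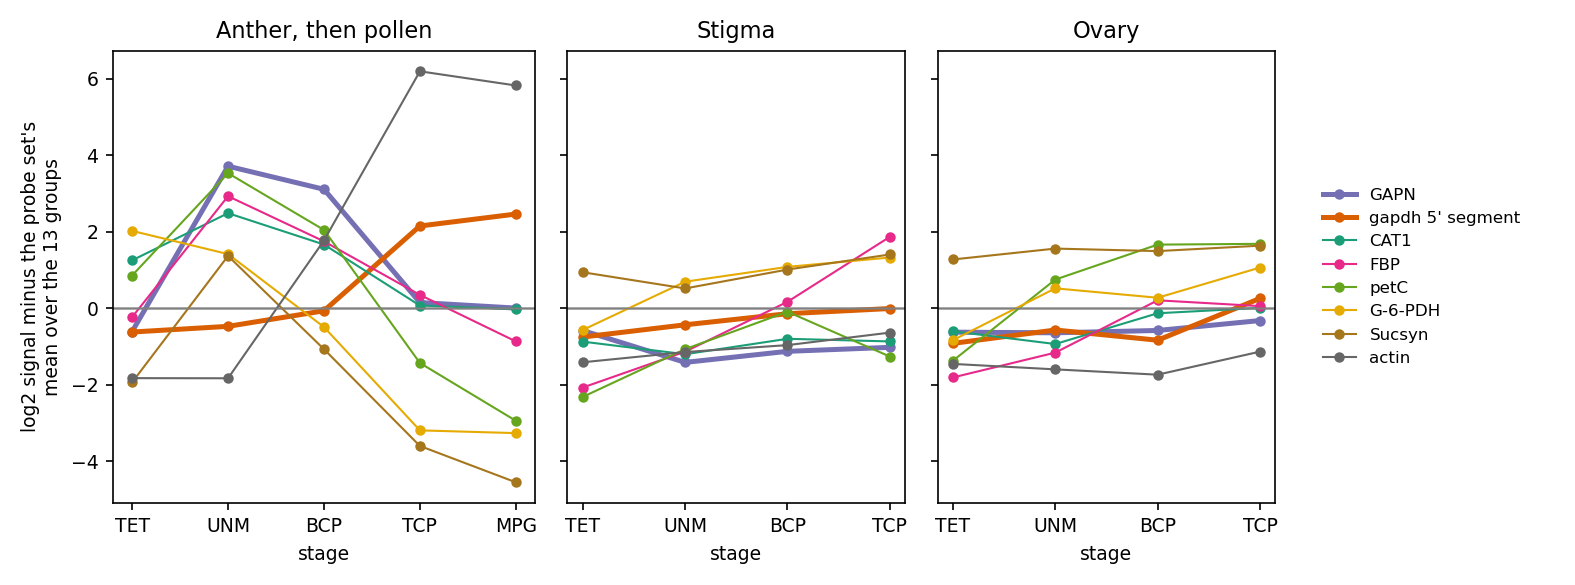
Log2 signal of GAPN, gapdh 5' and 6 other named genes minus the mean of each probe set over the 13 groups, by stage, in anthers followed by mature pollen, in stigmas and in ovaries. Points are means of 3 arrays and lines only join the groups of an organ. Sucsyn and G-6-PDH are shown by their 3' probe sets and actin by its M probe set. GAPN lies 3.71 above its own mean in anthers at UNM and 0.15 above it at TCP, and gapdh 5' lies 0.48 below its own mean at UNM and 2.15 above it at TCP.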

How the data were processed

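RNA abundance was measured on 39 arrays. The labels' organ and stage put every sample in 1 of 13 groups of 3. The deposited values are log2 signals that the authors made with RMA, a tool named in the submitters' processing notes without a version; whether it was run on all arrays at once is not given in the sources used. RMA forces arrays to a common distribution, so dim probe sets can be lifted in a sample with few abundant transcripts, and rye transcripts may bind wheat probes less well. Per the labels' protocols, PicoPure extraction and labelling in 2 cycles were used at TET, RNeasy and InviTrap extraction and the 3' IVT Express labelling kit at UNM and BCP, and CsCl extraction and labelling in 1 cycle at TCP and for MPG.

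The 86 bacterial, spike-in and tag control rows were left out of the tests, and the other 61204 entered them unfiltered. Using limma 3.58.1 in R 4.3.3, a mean per group was fitted over all arrays (residual degrees of freedom 26, prior 7.5), with 24 contrasts. P-values were adjusted by Benjamini-Hochberg over the 61204 rows of a contrast, and a call required under 0.05 after adjustment together with at least 2-fold. Folds are 2 to the power of the difference. The fit was tested on simulated data. Arrays have no read depth, and their number limits the precision.

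The members, the carbon metabolism list and the markers were chosen with earlier results of these data known. The rule for other names took the carbon list, the 5 named genes with the highest and the 3 with the lowest Pearson's r with GAPN and with gapdh 5' over the 13 group means, and the 2 unnamed probe sets of highest r among those reaching a mean of 8 and spanning 2. A gene was represented by its probe set of highest mean. Of 771 symbols in the platform annotation, carried by 1273 rows with 1 symbol each, 758 were bare locus numbers and were not used, and 59931 tested rows had none. With the control names, 21 genes had a name.

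Replicate numbers were checked for pairing by correlating the deviations of same-numbered arrays from their group means, in 24 pairs of groups. All 3 correlations were over 0.1 only for anthers and stigmas at BCP (0.261, 0.104 and 0.129), and the main test used no pairing. Alternatives were scalings to the brighter 50% of probe sets (by their median) and to the 27 hybridisation control rows, testing only probe sets with a group mean of 6 or more, fitting the compared groups by themselves, robust moderation with a trend, weighting arrays, the replicate number as a block, an adjusted p under 0.01, and leaving out each array.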

Additional observations from a re-analysis of the deposited data

Results flagged for a closer look

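In 6 cases every array of one group moved one way and every array of another the opposite way under the same contrast; none of these differences between the effects was tested. GAPN stood 4.33 higher at UNM than at TET in anthers and 0.83 lower in stigmas, a difference of 5.16 on the log2 scale. The other 5 cases concern the gapdh 3' and M probe sets, which were dim on all arrays. In the 3' probe set, anthers over ovaries came to -0.24 at TET and 0.46 at TCP, a difference of -0.70. In the M probe set, anthers over ovaries came to -0.16 at UNM and 0.43 at TCP (-0.58), anthers over stigmas to -0.28 at TET and -0.12 at UNM, against 0.53 at TCP (-0.81 and -0.65), and TCP over BCP to 0.46 in anthers and -0.25 in stigmas (0.71). Under the hybridisation control scaling the TCP values of the 3' and M probe sets turned to -0.19 for 3' and to -0.23 and -0.01 for M.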

How the results depend on the processing

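Relative to the deposited scale, the scaling to the brighter 50% of probe sets shifted the median of all probe sets by up to 0.52, and that to hybridisation controls by up to -0.93, both in MPG over TCP ovaries. On the scaling to the brighter probe sets, gapdh M x passed the threshold in TCP anthers over stigmas (1.04) and over BCP anthers (1.03) and in MPG over ovaries (1.39), gapdh 3' in MPG over ovaries (1.20) and stigmas (1.15), and GAPN in stigmas at UNM over TET (-1.01); 6 places in the order of GAPN and 5 in that of gapdh 5' changed. On the hybridisation control scaling, gapdh 5' x missed it in TCP anthers over ovaries (0.63) and stigmas (0.74) and in MPG over ovaries (0.80) and stigmas (0.90), GAPN in TCP anthers (0.64) and MPG (0.22) over stigmas, and gapdh M x in MPG over stigmas (0.32), while GAPN passed it in stigmas at UNM over TET (-1.64); 9 places changed in each order. That scaling also raised the share of all probe sets called to 39.4% from 15.4% for anthers at UNM over TET, to 13% from 8.29% at BCP over UNM, to 18.2% from 11% and 2.33% from 1.40% for the same steps in ovaries, and to 38.4% from 11% and 6.10% from 3.61% in stigmas. The causes were not tested. The correlation of gapdh 5' with actin was 0.946 by Pearson's r and 0.802 by Spearman's rho.

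Leaving out 1 array at a time, GAPN ranged from -1 to -0.62 in stigmas over ovaries at UNM, from -1.01 to -0.25 in anthers at BCP over UNM, from 0.96 to 1.31 in TCP anthers over stigmas and from 0.90 to 1.13 in MPG over stigmas. For gapdh 5' the range was 0.53 to 1.02 in BCP anthers over ovaries (1.02 without replicate 1 of the anthers) and 0.86 to 1.31 in ovaries at TCP over BCP, and for gapdh M x 0.75 to 1.07 in MPG over ovaries (1.07 without replicate 3 of the pollen). The share called in ovaries at BCP over UNM, 1.40%, ranged from 0.928% (without replicate 1 of the BCP ovaries) to 1.72%. With a replicate block, GAPN in anthers over stigmas at BCP was 4.24, as without it, and the block changed no call of the members. The fit on the compared groups alone, the variance trend, array weights, the threshold of 0.01 and the dim filter changed none either, but the filter gives gapdh 3' and M no value. Since those 2 were dim on all 39 arrays, a missing call does not show equal transcript levels.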
